A study of Mus musculus with 9 samples.

Results

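The genes described here are Trp53, which encodes the transcription factor p53, and 9 of its direct target genes, Cdkn1a, Mdm2, Mdm4, Ccng1, Plk2, Btg2, Trp53inp1, Phlda3 and Zmat3. They were chosen by name, because textbook knowledge places them under p53, and with earlier results of these data known. Each was found once among the 20189 genes of the count table, so that 10 of 20189 genes are described in full. All 10 passed the minimum of 1 count over the 9 libraries, which 20143 genes passed. Poly(A) mRNA was sequenced from wild-type E14 cells, a line of mouse embryonic stem (ES) cells kept with leukemia inhibitory factor (LIF). 3 libraries came from cells starved of threonine for 3 h (Thr-starved), 3 from cells starved of cysteine for 3 h (Cys-starved) and 3 from cells labelled as unstarved. Whether the unstarved cells had the same washes, change of medium and time is not stated for these libraries in the sources used here. The 3 groups share the genotype, so no group lacks p53, and E14 is 1 line. The sources used here do not state which Thr-free and Cys-free media these libraries had, although a Cys-free DMEM is described for the cell death assays of the study. The comparisons ask how the mRNAs of the p53 pathway stood after 3 h without either amino acid, and whether the 2 starvations differed.

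p53 is held low in unstressed cells by Mdm2, a ubiquitin ligase that marks it for degradation, and by the related Mdm4, which binds its activation domain. Stress signals loosen this hold, and p53 then binds paired half-sites in DNA and raises genes that stop the cell cycle, repair DNA, change metabolism or kill the cell, among them Mdm2 itself, which closes a negative feedback loop. ES cells carry much p53 mRNA and protein, and p53 activity in them is known to bear on differentiation as well as on damage. The libraries measured mRNA only, so the amount and the activity of the p53 protein were not measured.

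To show what such an element looks like at members of the set, the promoters of Cdkn1a and Ccng1 are printed, the only members whose RefSeq promoter window held a close match to the p53 consensus element. The element was taken as 2 half-sites of 10 bases each and without a spacer, 20 bases in all, and since it reads the same on both strands 1 scan covered both. No other motif was searched. A window ran from 250 bases before to 50 after an annotated start, 300 bases in all, in RefSeq on build GRCm38.p6. 8 of the 10 members had a window, 10 windows in all since Cdkn1a and Mdm4 each had 2 annotated starts, and Trp53inp1 and Zmat3 had none. The Cdkn1a window that is printed, at the upstream start, lies at chr17:29090729-29091028 on the plus strand and the Ccng1 window at chr11:40755237-40755536 on the minus strand. Capitals mark the 20 bases that matched with 1 mismatch.
Cdkn1a promoter: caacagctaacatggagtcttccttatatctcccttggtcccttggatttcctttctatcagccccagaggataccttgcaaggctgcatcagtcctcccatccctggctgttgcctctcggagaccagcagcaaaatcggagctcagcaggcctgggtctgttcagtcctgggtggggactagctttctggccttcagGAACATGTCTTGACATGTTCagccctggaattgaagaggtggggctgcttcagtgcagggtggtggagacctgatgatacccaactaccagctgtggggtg
Ccng1 promoter: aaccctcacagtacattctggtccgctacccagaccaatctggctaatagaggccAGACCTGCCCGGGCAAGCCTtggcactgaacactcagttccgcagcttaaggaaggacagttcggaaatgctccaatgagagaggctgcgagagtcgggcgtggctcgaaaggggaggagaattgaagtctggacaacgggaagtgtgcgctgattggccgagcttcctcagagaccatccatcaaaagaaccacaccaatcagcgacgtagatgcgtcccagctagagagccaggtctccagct
In Cdkn1a the match, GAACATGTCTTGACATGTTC at chr17:29090928-29090947, ran from 51 to 32 bases before the upstream start, and its mismatch lay in the second half-site. The window of the other Cdkn1a start, at chr17:29093519-29093818, held no match with fewer than 5 mismatches. In Ccng1 it was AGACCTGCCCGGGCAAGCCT at chr11:40755462-40755481, from 195 to 176 bases before the start, with the mismatch in the first half-site. Among all 27025 genes with such windows, 29 genes, or 0.107%, held a match with at most 1 mismatch. The best matches elsewhere had 3 mismatches in the windows of Trp53 and of 1 start of Mdm4 (6 at its other start), 4 in that of Btg2, and 5 in those of Mdm2, Plk2 and Phlda3. With at most 2 mismatches the same 2 members matched, beside 0.94% of all genes, and with none allowed no member matched, beside 0.0111%. A match is a likeness in letters only, and sites outside these windows were not searched.

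The libraries held between 48763102 and 74962733 counts. Beyond the noise of counting, replicates varied by 3.53% (the coefficient of variation that the fit estimated in common for all genes). The test was the quasi-likelihood one of edgeR, fitted over all 9 libraries together, a gene was called at a Benjamini-Hochberg adjusted p of at most 0.05 over the 20143 genes, and levels are given in CPM (counts divided by the library total, TMM scaled). Of all genes tested, 63.0% were called between Thr-starved and unstarved cells (31.1% higher, 31.9% lower), 36.3% between Cys-starved and unstarved cells (17.5% higher, 18.8% lower) and 62.0% between the 2 starvations (30.4% higher with Thr starvation, 31.6% lower). Of the calls with Cys starvation, 48.2% were higher, which became 36.8% with the deposited size factors and 68.0% with total counts as the only scaling, so small Cys changes turn on the scaling. The labelled cell type was borne out by its markers: all 8 ES cell markers were present, with a summed level of 4137 to 4217 CPM in Thr-starved, 3728 to 3754 CPM in Cys-starved and 3907 to 3932 CPM in unstarved libraries. 9 markers of differentiated cells summed to 29.8 to 32.9, 30.6 to 31.1 and 24.1 to 24.7 CPM in the same order, and 4 of 6 markers of fibroblast feeders, with Lum and Dcn not in the table, to 9.56 to 10.8, 13.0 to 15.8 and 14.5 to 14.9 CPM. These sums hide single moves, to be set beside the shares of all genes above. With Thr starvation 4 ES cell markers rose and 4 fell, and 4 markers of differentiated cells rose and 2 fell. With Cys starvation 3 ES cell markers rose and 5 fell, and 4 markers of differentiated cells rose and 5 were not called. The feeder markers moved to 1 side: with Thr starvation 3 of the 4 fell and 1 was not called. Those 3 were Thy1 (log2 fold change -1.86), Pdgfrb (-1.55) and Col1a1 (-0.39). With Cys starvation Thy1 fell (-0.44) and the other 3 were not called. In bulk samples, fewer cells of a type and less RNA per cell cannot be told apart. The part of these markers in the results on p53 targets was not tested.

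Thr starvation raised all 10 mRNAs, and 7 of the 9 targets, Plk2, Cdkn1a, Mdm2, Mdm4, Ccng1, Trp53inp1 and Phlda3, stood at 2.22 to 3.58 times their unstarved level. All 10 members were called higher, beside 31.1% of all genes, and in all 10 the lowest Thr-starved library lay above the highest unstarved one, beside 66.5% of all genes whose groups did not overlap in either direction. These 7 passed an absolute log2 fold change of 1, beside 13.2% of all genes, although Trp53inp1 did not in every alternative processing (lowest value 0.963). The median log2 fold change of the 10 was 1.25 and that of all genes tested was -0.016. Cys starvation moved them the other way and much less. 8 were called lower, beside 18.8% of all genes (6 with total counts as the only scaling and 9 with the deposited size factors), none was called higher under any scaling, and the median log2 fold change was -0.19 beside 0.0068 for all genes. The groups of these 8 did not overlap, which held for 46.4% of all genes, and 0 members passed an absolute log2 fold change of 1, beside 1.47% of all genes. The 2 comparisons share the 3 unstarved libraries. The members took 0.230% to 0.232% of all counts in Thr-starved, 0.112% to 0.113% in Cys-starved and 0.117% to 0.120% in unstarved libraries.

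**Figure D1:**
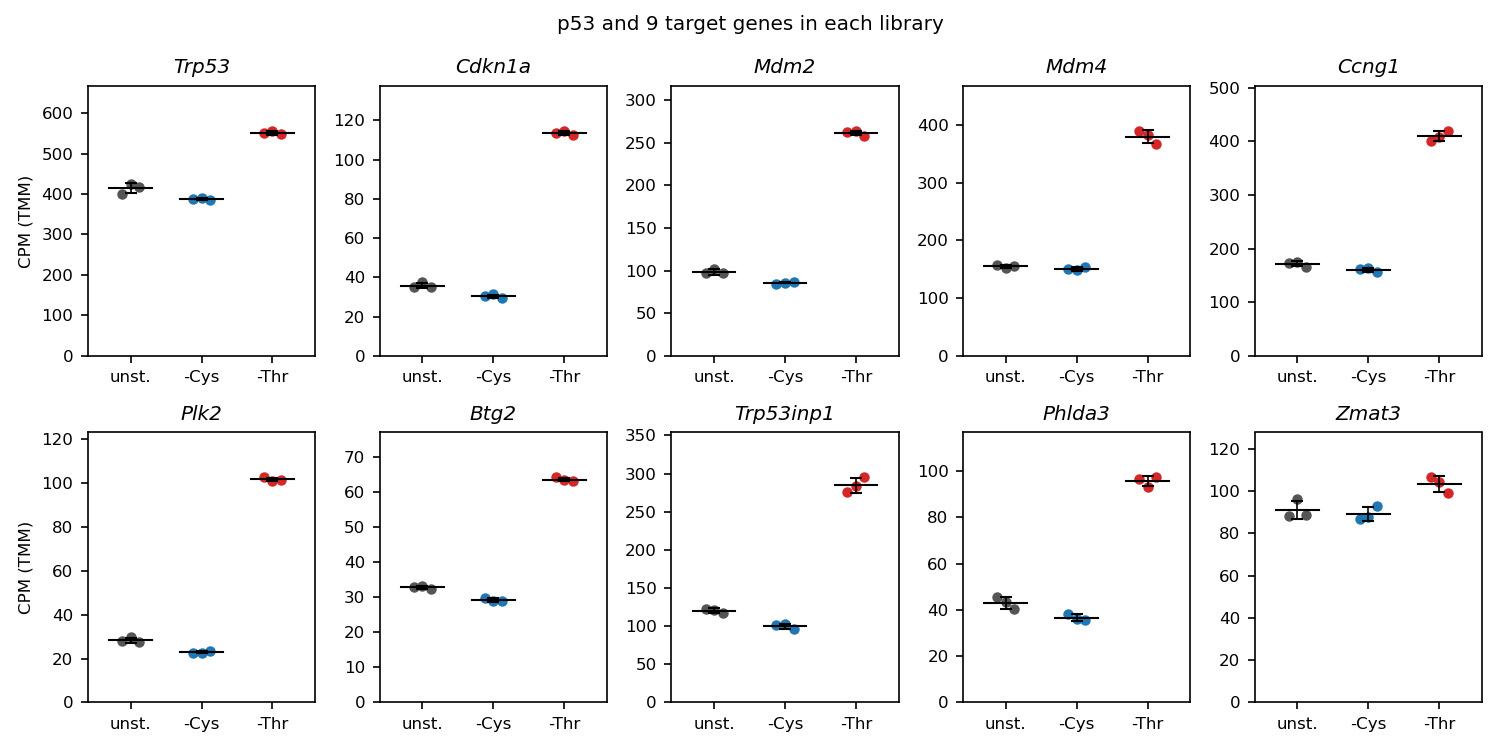
CPM (TMM scaled, axes from 0) of each of the 10 genes in each of the 9 libraries, with 1 panel per gene and unstarved, Cys-starved and Thr-starved libraries from left to right, points for libraries, a long line for the mean and bars for the SD of 3 libraries. In every panel the 3 Thr-starved libraries sit above all others, by the narrowest margin in Zmat3, and the Cys-starved libraries lie at or a little under the unstarved ones.

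Trp53 itself, at chr11:69580359-69591873 (plus strand, GRCm38, as are all positions that follow), was the member with the most counts. It stood at 549.9, 556 and 547 CPM in the Thr-starved, 388, 389 and 384 CPM in the Cys-starved and 401, 425 and 416 CPM in the unstarved libraries. The 3 groups did not overlap, with Thr-starved cells highest and Cys-starved cells lowest. Its log2 fold change with Thr starvation was 0.41 (SE 0.0217, edgeR adjusted p = 1.2e-13), a 1.33-fold rise, and with Cys starvation -0.10 (SE 0.0217, adjusted p = 0.0011). The fall with Cys starvation depended on the scaling: with total counts as the only scaling it was -0.03 (adjusted p = 0.23). A stretch of 353 bases of the Trp53 transcript is 97.7% identical to the pseudogene Trp53-ps, and shorter stretches, long enough for a read of 43 bases, are at least 95% identical to parts of other genes, 310 genes in all, of which 237 are in the count table. How reads were split there is not known.

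Mdm2 and Mdm4, the paired inhibitors of p53, are also its targets. Mdm2, at chr10:117688875-117710758 (minus strand), stood at 262, 264 and 258 CPM in the Thr-starved, 84.8, 86.1 and 86.2 CPM in the Cys-starved and 96.9, 102 and 96.8 CPM in the unstarved libraries. Its 3 groups were separate, and the unstarved libraries lay between the others. Mdm2 rose 2.65-fold with Thr starvation (log2 fold change 1.41, SE 0.0265, adjusted p = 1.6e-21) and fell with Cys starvation (log2 fold change -0.20, SE 0.0270, adjusted p = 2.9e-06). Mdm4, at chr1:132959484-133030561 (minus strand), stood at 389, 382 and 367 CPM in the Thr-starved, 150.2, 148 and 154 CPM in the Cys-starved and 158, 153 and 156 CPM in the unstarved libraries. Here the Cys-starved and unstarved libraries overlapped, while the Thr-starved ones lay far above both. The rise with Thr starvation was 2.44-fold (log2 fold change 1.29, SE 0.0259, adjusted p = 5.3e-21). With Cys starvation Mdm4 was not called (log2 fold change -0.05, 95% interval -0.10 to 0.01, adjusted p = 0.18), but it was called lower with the deposited size factors (-0.09, adjusted p = 0.00817) and after length and GC trends had been removed (-0.08, adjusted p = 0.00716), and with total counts as the only scaling its sign turned (0.017, adjusted p = 0.67). The folds of both inhibitors with Thr starvation were above the 1.33 of Trp53, with 95% intervals that did not overlap.

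Cdkn1a, Ccng1, Plk2 and Btg2 act on the cell cycle and growth. Cdkn1a encodes p21, which inhibits cyclin-dependent kinases, and lies at chr17:29090976-29100727 (plus strand). Cdkn1a stood at 114, 115 and 113 CPM in the Thr-starved, 30.3, 31.3 and 29.5 CPM in the Cys-starved and 35.0, 37.5 and 35.1 CPM in the unstarved libraries. All Thr-starved libraries lay far above the rest, and every Cys-starved library lay under every unstarved one. The rise was 3.17-fold (log2 fold change 1.66, SE 0.0341, adjusted p = 7.3e-21) and ranked 74 among the 11410 genes that averaged 5 CPM or more, and the log2 fold change with Cys starvation was -0.24 (SE 0.0364, adjusted p = 1.6e-05). 273 exonic bases of Cdkn1a lie opposite AC167363.2, an unnamed transcript on the other strand. The library kit keeps the strand, but the strand setting of the counting is not given in the sources used here.

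Plk2, a polo-like kinase that is also an immediate early gene, lies at chr13:110395046-110400844 (plus strand) and changed the most of the 10. Plk2 stood at 102, 101 and 101 CPM in the Thr-starved, 22.6, 22.6 and 23.3 CPM in the Cys-starved and 28.0, 29.7 and 27.3 CPM in the unstarved libraries. The groups were separate here too, in the same order as for Cdkn1a. Its rise with Thr starvation was 3.58-fold (log2 fold change 1.84, SE 0.0356, adjusted p = 2.6e-21), rank 35 of the 11410 genes, and its fall with Cys starvation was also the largest among members (log2 fold change -0.31, SE 0.0388, adjusted p = 1.1e-06). Btg2, an antiproliferative cofactor of mRNA deadenylation and likewise an immediate early gene, lies at chr1:134075170-134079120 (minus strand). Btg2 stood at 64.2, 63.4 and 63.3 CPM in the Thr-starved, 29.7, 28.9 and 28.8 CPM in the Cys-starved and 32.9, 33.4 and 32.5 CPM in the unstarved libraries. Again no Thr-starved library came near the others, and the Cys-starved ones were lowest. Btg2 rose 1.93-fold with Thr starvation (log2 fold change 0.95, SE 0.0343, adjusted p = 1.4e-16) and fell slightly with Cys starvation (-0.18, SE 0.0358, adjusted p = 0.00044). Of 10 other immediate early genes, 7 rose with Thr starvation, 1 fell and 2 were not called, with a median log2 fold change of 0.69, beside 31.1% of all genes higher. With Cys starvation 1 of the 10, Jun, rose, 3 fell and 6 were not called, beside 17.5% higher and 18.8% lower of all genes. Their summed level was 420.4 to 428 CPM in Thr-starved, 236 to 239.8 CPM in Cys-starved and 247 to 253 CPM in unstarved libraries. Jun rose the most of them with Thr starvation (log2 fold change 2.91). Its level was 6.02 ± 0.663 CPM (SD, n = 3) in unstarved, 11.4 ± 0.393 CPM in Cys-starved and 45.1 ± 0.892 CPM in Thr-starved cells. Jun thus rose without cysteine too (log2 fold change 0.92, edgeR adjusted p = 4.5e-10). Junb rose with Thr starvation (0.96) and fell with Cys starvation (-0.35), as Plk2 and Btg2 did. The others that fell with Cys starvation were Ier3 (-0.48) and Zfp36 (-0.40). The part of the immediate early response in the rise of Plk2 and Btg2 was not tested.

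Ccng1 encodes cyclin G1, which recruits a phosphatase to Mdm2, and lies at chr11:40748552-40755311 (minus strand). Ccng1 stood at 401, 407 and 419 CPM in the Thr-starved, 162, 164 and 156 CPM in the Cys-starved and 173, 176 and 167 CPM in the unstarved libraries. Thr-starved libraries lay well above the other groups, which sat close together with the Cys-starved ones lower. The rise was 2.38-fold (log2 fold change 1.25, SE 0.0264, adjusted p = 1.1e-20). With Cys starvation the log2 fold change was -0.10 (SE 0.0264, adjusted p = 0.0062), and with total counts as the only scaling it was -0.03 (adjusted p = 0.37).

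Trp53inp1, Phlda3 and Zmat3 act in cell death, survival signalling and RNA processing. Trp53inp1, a stress protein that binds p53 and takes part in autophagy, lies at chr4:11156431-11174379 (plus strand). Trp53inp1 stood at 276, 284 and 295 CPM in the Thr-starved, 101, 102 and 95.9 CPM in the Cys-starved and 123, 121 and 117 CPM in the unstarved libraries. It was separate between all 3 groups, lowest without cysteine. Trp53inp1 rose 2.36-fold with Thr starvation (log2 fold change 1.24, SE 0.0300, adjusted p = 1.3e-19) and fell with Cys starvation (-0.27, SE 0.0305, adjusted p = 3.0e-07). Phlda3, an inhibitor of the kinase Akt, lies at chr1:135766119-135769136 (plus strand). Phlda3 stood at 96.8, 93.1 and 97.3 CPM in the Thr-starved, 38.3, 35.9 and 35.6 CPM in the Cys-starved and 45.6, 43.3 and 40.3 CPM in the unstarved libraries. The lower groups came near each other here without overlapping. Phlda3 rose 2.22-fold with Thr starvation (log2 fold change 1.15, SE 0.0399, adjusted p = 7.2e-17), and its log2 fold change with Cys starvation was -0.24 (SE 0.0418, adjusted p = 9.8e-05).

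Zmat3, a zinc finger protein that binds RNA and acts on splicing, lies at chr3:32334792-32366014 (minus strand) and changed the least. Zmat3 stood at 106, 104 and 99.3 CPM in the Thr-starved, 86.7, 87.6 and 93.1 CPM in the Cys-starved and 88.4, 96.2 and 88.6 CPM in the unstarved libraries. The Thr-starved libraries were highest by a narrow margin, and the other groups overlapped. Its rise of 1.13-fold was small but passed the test (log2 fold change 0.18, SE 0.0362, adjusted p = 0.00014), and with Cys starvation it was not called (-0.03, 95% interval -0.11 to 0.04, adjusted p = 0.55), with a sign that turned under total-count scaling (0.032) and without unstarved replicate 2 (0.0093). Stretches of up to 142 bases of Zmat3 are similar to parts of Chek2, Imp4 and Bbs1, and their part in its counts was not tested.

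**Figure D2:**
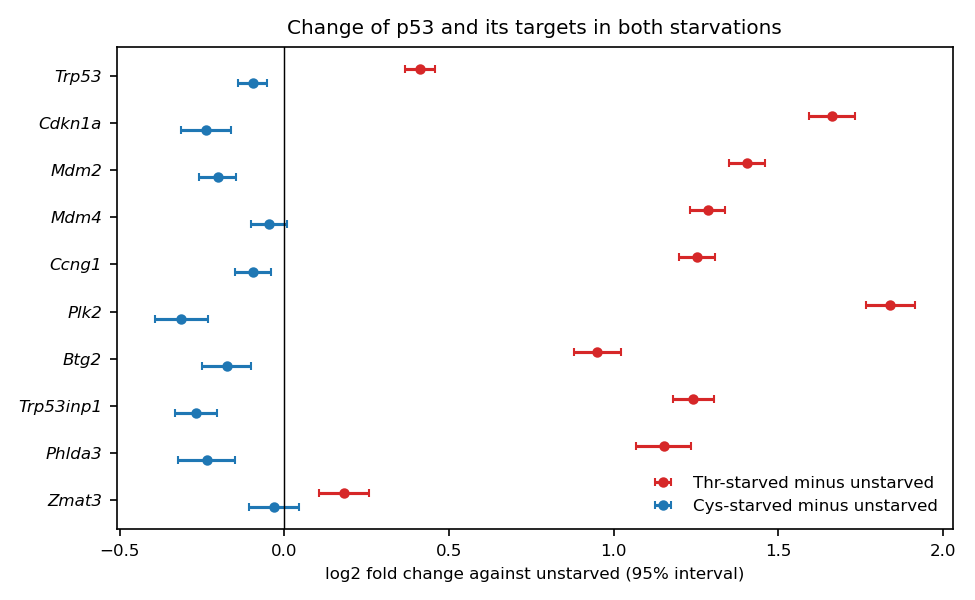
Log2 fold change of each gene against unstarved cells, with its 95% interval, for Thr-starved and Cys-starved cells (edgeR, 3 libraries per group). The Thr-starved points run from 0.18 for Zmat3 to 1.84 for Plk2, all right of 0, and the Cys-starved points from -0.31 to -0.03, where the intervals of Mdm4 and Zmat3 reach past 0.

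The 2 starvations were also compared directly. All 10 members were higher in Thr-starved than in Cys-starved cells, beside 30.4% of all genes, and no group overlapped, beside 65.8% of all genes. The median log2 difference was 1.37, against -0.018 over all genes tested, and 8 members passed an absolute log2 difference of 1, beside 11.4% of all genes. Plk2 differed the most, by 2.15 (SE 0.0362, adjusted p = 5.6e-22), which ranked 6 among the 11410 genes that averaged 5 CPM or more. Cdkn1a followed at 1.90 (SE 0.0345, adjusted p = 1.5e-21) and ranked 17, and Mdm2 stood at 1.61 (SE 0.0267, adjusted p = 5.5e-22). The difference was 1.51 for Trp53inp1, 1.39 for Phlda3, 1.35 for Ccng1, 1.33 for Mdm4 and 1.13 for Btg2. Trp53 differed by 0.51 (SE 0.0217, adjusted p = 3.6e-15) and Zmat3 by 0.21 (SE 0.0362, adjusted p = 2.1e-05).

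Levels can be set beside each other between genes only per length, so counts were divided by the merged exon length and scaled to a common total per library (TPM). In unstarved cells Trp53 led at 216 ± 7.14 TPM (SD, n = 3), followed by Ccng1 at 103 ± 2.77, Phlda3 at 58.2 ± 3.40, Mdm2 at 40.9 ± 1.41 and Trp53inp1 at 39.2 ± 0.831 TPM. Below them lay Btg2 at 25.3 ± 0.358, Mdm4 at 22.2 ± 0.298, Cdkn1a at 21.3 ± 0.879, Zmat3 at 16.8 ± 0.858 and Plk2 at 13.3 ± 0.595 TPM. Neighbours in this order did not overlap between libraries, other than Mdm4 and Cdkn1a. In Thr-starved cells the order of the first 5 was the same, with Trp53 at 295 ± 3.65 and Ccng1 at 252 ± 5.83 TPM, and Cdkn1a, at 69.3 ± 0.869 TPM, stood above Mdm4 at 55.5 ± 1.65 and Btg2 at 50.2 ± 0.328 TPM. Plk2 then stood at 49.0 ± 0.208 TPM and Zmat3, last, at 19.6 ± 0.702 TPM. In Cys-starved cells Plk2 was last at 11.5 ± 0.235 TPM, Mdm4 stood at 23.0 ± 0.524 and Cdkn1a at 19.3 ± 0.492 TPM, and Trp53 and Ccng1 stood at 216 ± 1.69 and 103 ± 2.48 TPM. On this scale, which has no TMM factor, Trp53 and Ccng1 thus stood at their unstarved level with Cys starvation. The means of Mdm4 and of Zmat3 (17.6 ± 0.680 TPM) were a little above the unstarved ones, and those of the other members stayed lower. The merged exons of Mdm4 and Zmat3 span 14798 and 11435 bases, so their levels per length are understated where cells use shorter transcripts.

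**Figure D3:**
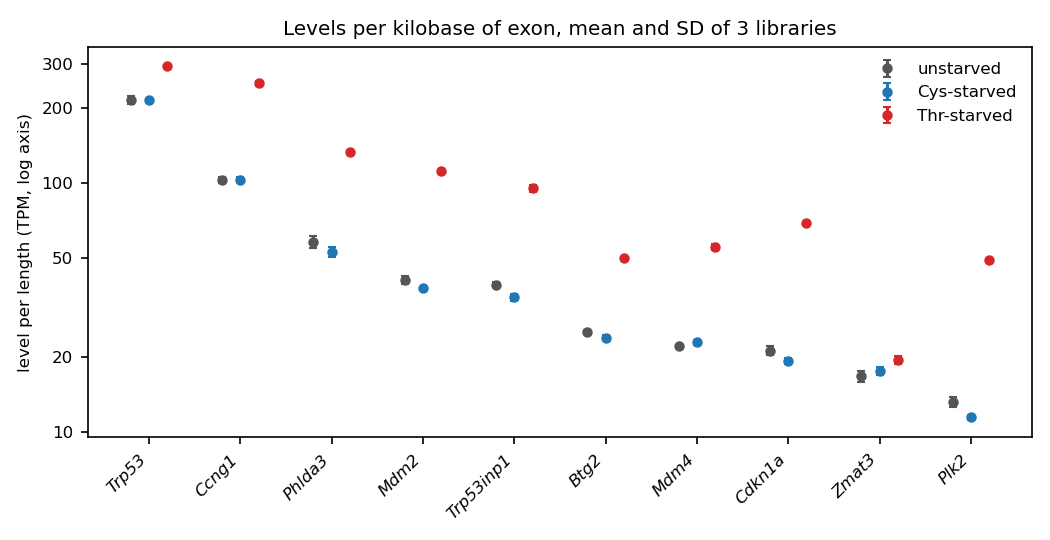
Level per kilobase of merged exon (TPM, log axis) of each gene, as mean and SD of 3 libraries per group, ordered by level in unstarved cells. Trp53 leads in each group, and the Thr-starved points lie above the others by a wide gap in all genes but Trp53 and Zmat3.

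The pattern over the 9 libraries was compared with that of Cdkn1a, as the Euclidean distance between log2(CPM + 0.5) values centred on each gene's mean, over 11409 genes that averaged 5 CPM or more. Plk2 was the member nearest to Cdkn1a, with a distance of 0.323 and rank 4, and Mdm2 came next with 0.383 and rank 10. Trp53inp1 ranked 28, Ccng1 49, Mdm4 52, Phlda3 56 and Btg2 174, while Trp53 ranked 1498 and Zmat3 3603. The 5 nearest genes outside the set were Socs3 (0.245), Zfp750 (0.271), Folr1 (0.285), Muc1 (0.324) and Zic5 (0.329). Socs3, an inhibitor of cytokine signalling, had a log2 fold change of 1.48 with Thr starvation and -0.35 with Cys starvation.

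A wider list of 42 further p53 targets held members that rose and members that fell in both starvations. With Thr starvation 24 of the 42 rose, 10 fell and 8 were not called, with a median log2 fold change of 0.35, beside 31.1% of all genes higher and 31.9% lower, and with Cys starvation 12 rose, 15 fell and 15 were not called, with a median of -0.07, a balance that turned to 14 risen and 8 fallen with total counts as the only scaling. The matching shares of all genes with Cys starvation were 17.5% higher and 18.8% lower, and the counts of the smaller groups that follow stand beside these Thr and Cys shares. Between the starvations 26 were higher with Thr starvation, 8 lower and 8 not called, beside 30.4% of all genes higher and 31.6% lower. Among the 12 targets that act in apoptosis, 9 rose and 3 fell with Thr starvation, beside 31.1% and 31.9% of all genes. Eda2r, a receptor of the TNF receptor family, rose from 48.4 ± 1.5 to 127 ± 1.93 CPM (SD, n = 3, log2 fold change 1.39), Pmaip1, which encodes NOXA, from 6.91 ± 0.424 to 15.3 ± 0.702 CPM (1.14) and Bbc3, which encodes PUMA, from 25.9 ± 0.813 to 51.7 ± 2.22 CPM (1.00). Ei24 rose by 0.71 on the log2 scale, while Perp (-0.30), Siva1 (-0.19) and Bax (-0.07) fell. With Cys starvation 2 of the 12 rose, Aen (0.23) and Bbc3 (0.14), and 6 fell, with Perp (-0.41) and the death receptor gene Tnfrsf10b (-0.30) in front.

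Of 8 targets in growth arrest and mitosis, 5 rose with Thr starvation, 1 fell and 2 were not called. Gadd45a, which acts in arrest and DNA repair, rose from 52.9 ± 2.12 to 194 ± 1.89 CPM (log2 fold change 1.88, adjusted p = 1.1e-22), and Psrc1 rose by 0.80 on the log2 scale. Sfn, which encodes 14-3-3 sigma, went the opposite way, from 73.2 ± 2.7 to 15.3 ± 0.257 CPM (log2 fold change -2.26, adjusted p = 3.3e-22). With Cys starvation 4 rose and 3 fell, Gadd45a to 92.0 ± 1.69 CPM (0.80) and Sfn to 50.6 ± 0.364 CPM (-0.53). Of 5 targets in DNA repair and nucleotide supply, Polk (1.23), Ercc5 (0.88) and Rrm2b (0.60) rose with Thr starvation and Xpc (-0.82) fell, and with Cys starvation Rrm2b (0.51) and Ercc5 (0.28) rose and Polk (-0.21) fell.

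Of 8 targets in metabolism and stress, 3 rose, 3 fell and 2 were not called with Thr starvation. The secreted factor Gdf15 rose from 8.29 ± 0.207 to 39.0 ± 0.672 CPM (log2 fold change 2.23), Sesn2, an inhibitor of mTORC1 signalling, from 171 ± 3.83 to 424 ± 2.39 CPM (1.31) and Ddit4 from 53.3 ± 0.735 to 102 ± 3.32 CPM (0.94), while Sesn1 (-0.82), Ephx1 (-0.54) and Tigar (-0.24) fell. With Cys starvation the same 3 genes rose and no other gene of the list was called: Ddit4 by 1.30, Gdf15 by 0.92 and Sesn2 by 0.54 on the log2 scale. Gdf15, Sesn2, Ddit4 and Gadd45a are known as targets of the stress factors ATF4 or CHOP as well, and the part of each factor in their rise was not tested. Nor was the part of ATF4 or CHOP in the changes of the other targets tested, those in apoptosis included. Of 9 targets in feedback and signalling, 4 rose and 2 fell with Thr starvation, led by the thiamine transporter gene Slc19a2 (0.76) and by Pltp (-0.41), and 1 rose and 5 fell with Cys starvation, led by Ppm1d (0.18), the gene of a phosphatase that acts on p53, and by Slc19a2 (-0.46).

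**Figure D4:**
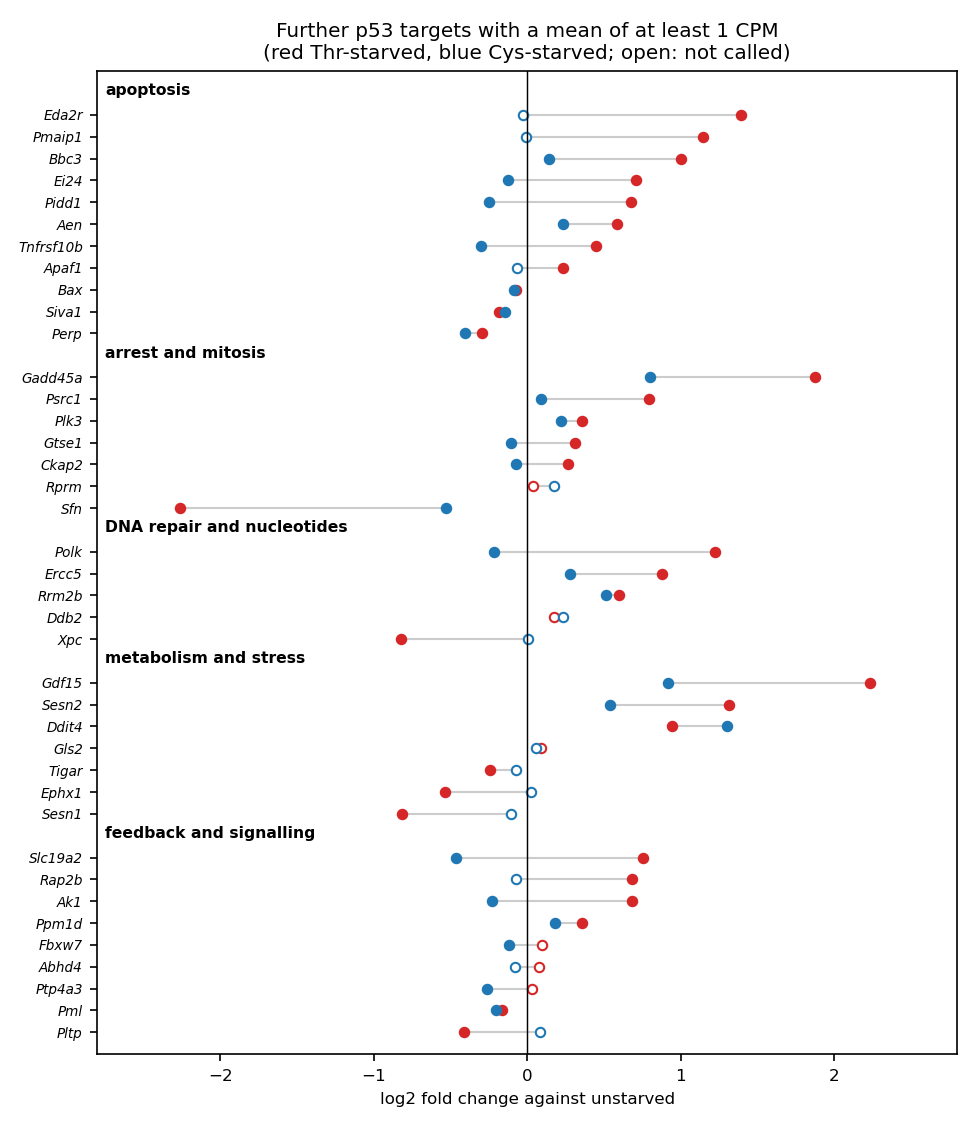
Log2 fold change against unstarved cells of the 39 further p53 targets averaging 1 CPM or more, grouped by role, in Thr-starved (red) and Cys-starved (blue) cells, with open symbols for genes that were not called. Thr-starved points spread from -2.26 for Sfn to 2.23 for Gdf15, and most Cys-starved points lie nearer to 0.

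Of 27 regulators tested, 13 rose, 10 fell and 4 were not called with Thr starvation (median log2 fold change 0.16), beside 31.1% higher and 31.9% lower of all genes, and 5 rose, 9 fell and 13 were not called with Cys starvation (median -0.04), beside 17.5% higher and 18.8% lower of all genes, where total counts as the only scaling gave 10 risen and 9 fallen. Trp63, a relative of p53, was not in the table. All 6 genes of acetylation and deacetylation rose with Thr starvation, among them Kat2b (0.65) and the acetyltransferase gene Ep300 (0.64), which went from 149 ± 3.69 to 233 ± 15.9 CPM. Of 7 kinases 3 rose and 3 fell, and the checkpoint kinases parted: Chek1 rose from 77.2 ± 2.25 to 140.1 ± 2.35 CPM (0.86) and Chek2 fell from 33.9 ± 0.559 to 16.7 ± 0.235 CPM (-1.02). Among 7 ubiquitin ligases, proteases and ARF pathway genes, the ligase gene Rchy1 rose (0.79) and the gene of the deubiquitinase Usp7, which stabilises p53 and Mdm2, fell (-0.36). Of 7 family members and partners, 2 rose and 4 fell, led by Trp53bp1 (0.29) and Ppp1r13l (-0.38). With Cys starvation the largest called rises were those of Ppp1r13b (0.37) and Prkdc (0.34), and the largest called falls those of Trp73 (-0.43) and Trp53bp1 (-0.30). Rchy1 (-0.23), Usp7 (-0.21) and Chek2 (-0.21) fell too, and Chek1 was not called (0.02, adjusted p = 0.71).

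Genes that p53 lowers indirectly, through p21 and the DREAM repressor, were read beside the rise of Cdkn1a. Of 20 such cell cycle genes, 15 rose, 4 fell and 1 was not called with Thr starvation, with a median log2 fold change of 0.25, beside 31.1% of all genes higher and 31.9% lower. Ccna2, the gene of cyclin A2, rose from 246 ± 4.11 to 359 ± 4.30 CPM (0.54), E2f1 by 0.52, Cdc25c by 0.51 and Mcm5 by 0.44 on the log2 scale. The 4 that fell were Bub1b, from 334 ± 5.17 to 211 ± 2.43 CPM (-0.67), Aurkb (-0.33), Foxm1 (-0.17) and Ccnb1 (-0.11). Their summed level was 5577 to 5596 CPM in Thr-starved, 4699 to 4701 CPM in Cys-starved and 4770.1 to 4869 CPM in unstarved libraries. With Cys starvation 5 rose, 6 fell and 9 were not called, with a median of -0.0036, beside 17.5% of all genes higher and 18.8% lower, and with total counts as the only scaling 8 rose and 5 fell. The p21 protein and the phase of the cell cycle were not measured in these libraries, and the part of p21 and DREAM in these changes was not tested.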

How the data were processed

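The authors aligned reads to GRCm38 with STAR (2.7.4a) and counted them per gene with HTSeq, per the labels, and deposited raw counts together with a normalized table, a signal that equals the raw counts divided by 1 size factor per library. Quality control by the authors used FastQC (0.11.7). The strand setting of the counting is not given in the sources used here. The columns mapped to the 9 libraries by title, and 0 columns were left unmapped. Libraries of Arg or Leu starvation were not analysed here.

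Raw counts were tested with edgeR (4.0.16, R 4.3.3): TMM, glmQLFit and glmQLFTest over all 9 libraries with group as the only term, genes with a total of at least 1 count, Benjamini-Hochberg over 20143 genes and a threshold of 0.05. 3 comparisons of 3 libraries against 3 were made. Nothing in the sources says that replicates were separate cultures, so p-values measure the spread between these samples, which may be technical. 67.8% of the 28226 values from 1 to 20 counts were even, so both reads of a fragment may have been counted, and halved counts were tried as an alternative. No 2 libraries agreed within sampling noise over well-covered genes, and none was merged.

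Symbols came from GENCODE M21, which named 20161 of the 20189 genes. Promoter windows came from RefSeq (GRCm38.p6), and a wider search for elements was not run. Members and gene lists were chosen with earlier results of these data known. All 10 members were given in full, and in each further list up to 4 called higher and 4 called lower with the largest change and a mean of at least 1 CPM were eligible to be named. The 5 genes nearest in pattern to Cdkn1a were named too, and Chek1 was added for Cys starvation beside its Thr value. Alternatives were DESeq2 (1.42.0), RLE and deposited size factors, 2 filters on low counts, a replicate block, a fit of the 2 groups compared, halved counts, a minimum absolute log2 fold change of 1, each library left out, and 2 added after seeing the data (total counts as the only scaling, and length and GC trends removed). On counts simulated for Thr-starved against unstarved libraries (20140 genes), 90 of 100 genes changed by 0.5 and 100 of 100 changed by 1 on the log2 scale were recovered, with 13 false calls. For Cys-starved against unstarved libraries (20141 genes), 86 and 99 were recovered, with 16 false calls. For the 2 starvations (20142 genes), 86 and 100 were recovered, with 17 false calls. Only these genes, all at 1 CPM or more, were changed in each simulation, up and down alike. A far larger share of genes was called in the data, so the simulations do not give the number of false calls there.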

Additional observations from a re-analysis of the deposited data

Results flagged for a closer look

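The effect of Thr starvation differed from that of Cys starvation, both set against the same unstarved libraries, in all 10 genes, by edgeR's test of the difference itself, which 62.0% of all genes passed. On the log2 scale the difference, Thr minus Cys, was 2.15 for Plk2, 1.90 for Cdkn1a, 1.61 for Mdm2, 1.51 for Trp53inp1, 1.39 for Phlda3, 1.35 for Ccng1, 1.33 for Mdm4, 1.13 for Btg2, 0.51 for Trp53 and 0.21 for Zmat3. In each gene all 3 Thr-starved libraries lay above all 3 Cys-starved ones. Groups of 3 libraries were not searched for outlying values.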

How the results depend on the processing

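Over 11 alternatives and 9 fits without 1 library, 580 of 600 member values kept their direction and their side of the threshold, 15 lost their call, 2 gained one and 3 changed sign. In each comparison 3 of the 9 fits left out a library of the group not compared, so their values could hardly move. The calls of all 10 members with Thr starvation held in each setting other than a minimum absolute log2 fold change of 1, which Trp53, Btg2 and Zmat3 did not reach. Sizes moved more than calls. Over the other 19 settings the log2 fold change with Thr starvation ran from 0.963 to 1.27 for Trp53inp1, 1.02 to 1.28 for Ccng1 and 1.11 to 1.49 for Phlda3. The sign of uncalled Cys values turned for Mdm4 (0.017) and Zmat3 (0.032) with total counts as the only scaling and for Zmat3 without unstarved replicate 2 (0.0093, the range without 1 library being -0.0637 to 0.0093). With that scaling the Cys falls of Trp53 and Ccng1 also lost their calls, by the scaling itself: calls with Cys starvation were 48.2% higher under TMM, 36.8% with the deposited size factors and 68.0% with total counts. Between the 2 starvations, higher calls were 49.0% under TMM and 40.0% with total counts.

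With a minimum absolute log2 fold change of 1, 2668 genes were called with Thr starvation, 296 with Cys starvation and 2303 between them, and 0 members were called lower with Cys starvation, by the construction of that setting. Further targets called higher and lower were then 8 and 1 with Thr starvation, 2 and 0 with Cys starvation and 7 and 1 between them, regulators 0 and 1, 0 and 0, and 1 and 0, and cell cycle genes 0 and 0 in all 3. With the deposited size factors 3 regulators and 2 cell cycle genes were called higher with Cys starvation. With total counts 8 further targets were called lower and 10 regulators and 8 cell cycle genes higher with Cys starvation, and 5 cell cycle genes lower with Thr than with Cys starvation, which was 6 with length and GC trends removed. Beyond the scaling, the cause was not tested. Without 1 library, regulators called higher with Cys starvation numbered 3 to 5, with 3 when unstarved replicate 1 was left out.

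The labels number the replicates, but same-numbered libraries did not deviate together (correlations -0.244 to 0.106), so the numbers were not taken as pairs. With the replicate number as a block 12488, 7063 and 12334 genes were called in the 3 comparisons, against 12689, 7313 and 12488 without it, and no member's call changed. At 48763102 counts or more per library the depth limited no member, the least of which had 1391 counts.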
